A study of Mus musculus with 6 samples.

Results

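The Bcl2 family decides at the outer mitochondrial membrane whether a stressed cell lives or dies. Here 9 genes of this decision and of its surroundings were compared between proliferating and differentiated C2C12 cells. They are the survival genes Bcl2, Bcl2l1 and Mcl1, the pore-forming genes Bax and Bak1, the BH3-only genes Bcl2l11 and Bid, the caspase gene Casp12, and Mdm2, which encodes the ubiquitin ligase of p53. The members were given as a list of symbols, and every probe set annotated to 1 of these symbols alone was taken. This gave 30 probe sets out of 45037 tested, for 8 of the 9 genes. No probe set is named for Bax in the annotation used here, so Bax was not analysed here.

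C2C12 is an immortalized line of mouse skeletal muscle myoblasts. The proliferating cells were grown with 20% serum, and the differentiated cells were taken on day 6 with 2% horse serum, both in a medium that the labels call MEM and the study's methods Dulbecco's MEM. Serum amount and type, days in low serum, exit from the cell cycle and differentiation change together between the groups and cannot be told apart. Each group has 3 RNA samples, each hybridized to its own Affymetrix mouse genome array. Each RNA sample combined 3 pools of 3 culture plates, which averages the cultures, so the p-values measure the spread between such pools and not between single cultures. A differentiated culture also holds mononucleated cells, and arrays of whole cultures cannot tell fewer cells of a type from less RNA per cell.

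In healthy cells the survival proteins hold the pore-forming proteins Bax and Bak1 in check. BH3-only proteins are the sensors of this family: once induced or cut, they occupy the survival proteins or activate the pore formers directly. Cytochrome c then leaves the mitochondria and Apaf1 activates caspase 9. Muscle differentiation is known to involve both the death of some myoblasts and a resistance of myotubes to death, and caspase activity has been tied to fusion itself. Caspase 12 belongs to the inflammatory branch of the caspases, sits at the endoplasmic reticulum in rodents and has been linked to stress of that organelle.

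The values are MAS 5.0 signals in arbitrary linear units, scaled on each array to a trimmed mean of about 250, and differences were tested with limma on log2(signal + 15), where positive values are higher in differentiated cells. A probe set passed at a Benjamini-Hochberg adjusted p under 0.05 over all 45037. Of the 27 bacterial control probe sets, the brightest on each array lay between 51.9 and 87.0, and a signal at or under that of its own array was read as background. The labels were borne out by markers fixed with the gene lists: all 6 myotube markers rose, with Myog going from 172 ± 9.60 to 6854 ± 194 (SD, n = 3 each), and all 4 measured markers of cycling cells fell, with Mki67 going from 1782 ± 249 to 115 ± 15.3 (SD, n = 3 each). The median signal of an array ran from 68.0 to 81.4.

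Of the 30 probe sets, 24 were above background on all arrays of at least 1 group. Casp12, Bcl2l11 and Mcl1 rose in differentiated cells, and no member was called lower: 7 of the 30 probe sets were called higher and 0 lower. Over all probe sets, 6.14% were called higher and 6.43% lower, so the 7 lie above the background share and the 0 below it. At such a share few of 30 probe sets would be called lower, so the 0 says little. The 7 belonged to 3 genes: Casp12 with 2 of 2 probe sets, Bcl2l11 with 2 of 5 and Mcl1 with 3 of 6. At an unadjusted p under 0.05, 3 probe sets were lower, 1 each of Bcl2l1, Bak1 and Bid, where 10.7% of all probe sets were, and the regularized test of the study's methods, adjusted in the same way, also called 0 lower. The 2 groups of arrays did not overlap at 14 of the 30 probe sets, and at 27.2% of all probe sets. The median log2 fold change was 0.28 over the 30 and 0.05 over all probe sets.

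**Figure D1:**
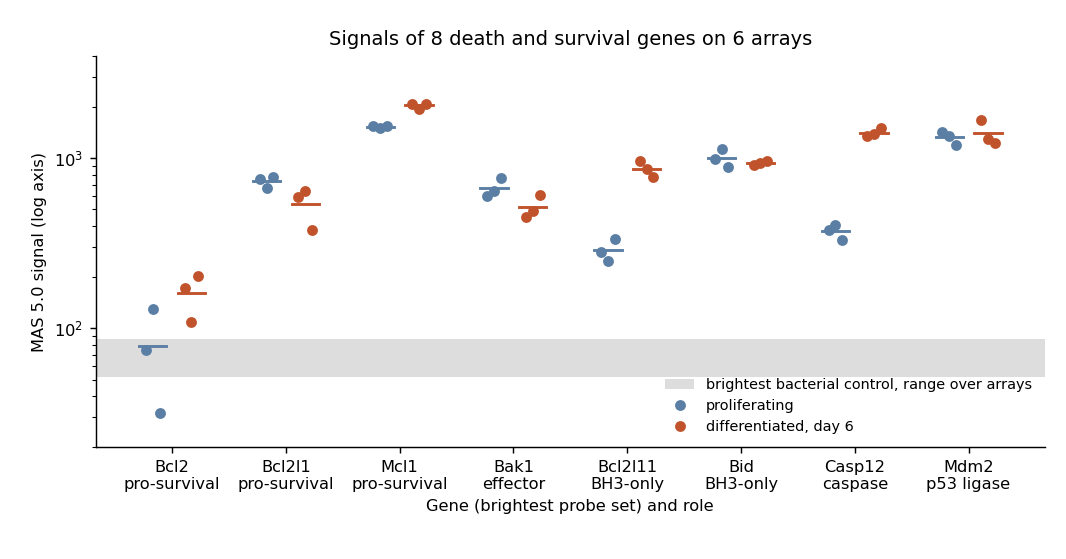
MAS 5.0 signal (vertical axis, log scale) of the brightest probe set of 8 genes on the 3 proliferating (blue) and 3 differentiated (red) arrays. Circles are arrays, horizontal lines are group means, and the grey band marks bacterial controls, from 51.9 to 87.0 at the brightest of each array. The groups stand apart for Casp12, Bcl2l11 and Mcl1, which are higher in differentiated cells, and for Bcl2l1, which is lower but did not pass. Bcl2 lies in or near the band in proliferating cells. Heights of different genes are not comparable.

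The stretches just before the annotated starts of the 3 genes that rose are shown because these members rose together. They are the 250 bases upstream of each start in RefSeq on GRCm38.p6, all on the plus strand, with matches to CANNTG (the E-box, the core read by MyoD and myogenin) and to TGTTTAC (a core read by FOXO factors) on either strand in capitals.
Casp12, chr9:5345226-5345475: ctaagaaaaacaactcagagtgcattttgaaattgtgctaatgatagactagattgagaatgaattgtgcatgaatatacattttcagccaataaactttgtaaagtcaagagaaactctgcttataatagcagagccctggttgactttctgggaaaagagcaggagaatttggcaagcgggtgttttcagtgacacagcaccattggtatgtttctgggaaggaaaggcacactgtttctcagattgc
Bcl2l11, first start, chr2:128125788-128126037: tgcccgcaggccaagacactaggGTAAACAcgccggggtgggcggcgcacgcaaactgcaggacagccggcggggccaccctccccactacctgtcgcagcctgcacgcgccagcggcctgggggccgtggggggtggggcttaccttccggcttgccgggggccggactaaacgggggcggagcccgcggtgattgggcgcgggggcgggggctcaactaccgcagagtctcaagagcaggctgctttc
Bcl2l11, second start, chr2:128127325-128127574: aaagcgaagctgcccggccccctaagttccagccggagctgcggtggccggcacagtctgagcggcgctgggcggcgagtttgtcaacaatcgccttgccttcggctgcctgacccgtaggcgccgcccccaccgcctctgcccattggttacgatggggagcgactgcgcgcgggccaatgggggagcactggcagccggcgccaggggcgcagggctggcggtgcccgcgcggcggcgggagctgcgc
Mcl1, chr3:95658471-95658720: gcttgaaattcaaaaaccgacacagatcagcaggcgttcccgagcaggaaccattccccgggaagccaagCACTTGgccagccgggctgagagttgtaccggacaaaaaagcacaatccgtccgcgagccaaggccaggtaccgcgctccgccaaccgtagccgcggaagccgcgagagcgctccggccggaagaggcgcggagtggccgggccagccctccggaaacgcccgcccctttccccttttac
Windows of 300 bases, from 250 before to 50 after a start, were searched for 32851 starts in all, and 72.3% of them hold CANNTG. It was found once for Mcl1, 180 bases before the start, and once at the first start of Bcl2l11, as CAGCTG in the 50 bases after the start that are not shown. The window of Casp12 and that of the second start of Bcl2l11 held none. Of the other members, every window of Bcl2l1 and those of Bax and Mdm2 held CANNTG, and those of Bcl2, Bak1 and Bid did not. TGTTTAC, in 3.65% of windows, was found once at the first start of Bcl2l11, beginning 227 bases before it, and once for Mdm2, whose transcript did not pass. It was also found for Casp4, the neighbour of Casp12, whose 2 windows overlap and hold the same match. CAGCTG, which is 1 form of CANNTG and is in 16.3% of windows, was also found in that of Mdm2. The p53 half-site, in 8.36% of windows, was found once for Mdm2 and once for Bax, and for no other member. These matches describe letters and not bound sites.

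Casp12 had the largest rise of the 8 genes. At its brighter probe set the signals were 378, 408 and 330 on the proliferating arrays and 1346.5, 1384 and 1510.5 on the differentiated arrays. Every differentiated array thus lay more than 3-fold above every proliferating one. The log2 difference was 1.89 (standard error, SE, 0.12, limma adjusted p = 2.3e-07), or 3.70-fold. The second probe set of Casp12 went from 387, 164 and 232 to 1211, 1170 and 1251, with a log2 difference of 2.23 (SE 0.22, adjusted p = 1.9e-05). Its proliferating arrays were more scattered, with an SD of 114 against 40.3 on the differentiated side. Of 18193 genes, each at its brightest probe set, 1.14% had a larger rise than Casp12.

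Bcl2l11 encodes Bim, a BH3-only protein that binds all the main survival proteins and can activate Bax and Bak1. Its brightest probe set read 281, 250 and 334 in proliferating cells and 961, 863 and 771 in differentiated cells. The groups were far apart, with a log2 difference of 1.54 (SE 0.14, limma adjusted p = 8.9e-06), or 2.90-fold, and 2.00% of all genes had a larger rise. The second probe set, brighter than background on all 6 arrays, went from 158 ± 8.33 to 296 ± 33.6 (SD, n = 3 each), with a log2 difference of 0.84 (SE 0.18, adjusted p = 0.0077). This smaller change no longer passed without differentiated replicate 1 (adjusted p = 0.055).
The other 3 probe sets of Bcl2l11 were dim and did not pass, with log2 fold changes of 1.45, 0.60 and 0.94 (adjusted p = 0.12, 0.52 and 0.36). At the first of these all 3 proliferating arrays were at background and all 3 differentiated arrays above it, at 136, 106 and 127, which is at least 1.85-fold. All 5 values for Bcl2l11 thus had the same sign, and their sizes spread from 0.60 to 1.54. The probe sets read different stretches of transcripts that splicing makes in several forms, and whether the stretches differ was not tested.

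Mcl1 encodes a short-lived survival protein that holds Bak1 and binds Bim. It rose less, from 1538, 1508 and 1548 to 2095, 1944 and 2099 at its brightest probe set, a log2 difference of 0.41 (SE 0.09, limma adjusted p = 0.0068), or 1.33-fold. The groups did not overlap there, and 24.4% of all genes had a larger rise. Across the 6 probe sets of Mcl1 the log2 fold change ran from 0.00 to 0.55, with no overlap of the groups at 5 of them. Those at 0.42 (adjusted p = 0.022) and 0.55 (adjusted p = 0.015) passed as well, and those at 0.29 and 0.28 did not (adjusted p = 0.071 and 0.068). The remaining probe set read 766, 692 and 721 against 778, 704 and 703, with a 95% interval of -0.23 to 0.24. Both the brightest probe set and the one at 0.55 carry the suffix _x_at, which Affymetrix gives to probe sets whose probes may also match other sequences, while the one at 0.42 does not. The call at 0.42 was lost when any of 4 single arrays was left out (adjusted p from 0.055 to 0.093), as was the call at 0.55 (adjusted p from 0.054 to 0.063), while that of the brightest probe set was kept. The calls of Mcl1 were lost, at all 3 probe sets, when limma was run without a trend of the variance on brightness (adjusted p = 0.19 for the brightest).

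Bcl2, the founding survival gene, was dim. Its brightest probe set read 74.7, 131 and 31.6 on the proliferating arrays, with 1 of 3 above background, and 173, 110 and 203 on the differentiated arrays, with 3 of 3. The groups overlap, and the log2 fold change of 1.02 had an SE of 0.42 and did not pass (limma adjusted p = 0.16). The next 2 probe sets were at 0.22 and 0.53 (adjusted p = 0.75 and 0.41), and the other 2 were at or near background. At 0.53 the groups did not overlap, with 59.2, 88.9 and 88.5 against 151, 109 and 102. At the brightest probe set the 95% interval, not adjusted for the number of probe sets, reached from 0.11 to 1.94, and the value was 0.59 without proliferating replicate 3.

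Bcl2l1 encodes Bcl-xL, the survival protein that also anchors Bax away from the membrane. At its brightest probe set it read 752, 667 and 779 in proliferating cells and 592, 639 and 381 in differentiated cells. All 3 differentiated arrays were lower, though 1 of them far more than the others, and the change of -0.47 on the log2 scale (SE 0.17) did not pass (limma adjusted p = 0.11). Its value ran from -0.61 to -0.24 as single arrays were left out, and was -0.24 without differentiated replicate 3. The second probe set was at -0.33 and overlapped (adjusted p = 0.30). A dimmer one was at 0.36 (adjusted p = 0.57), and the last was at background on all 6 arrays.

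**Figure D2:**
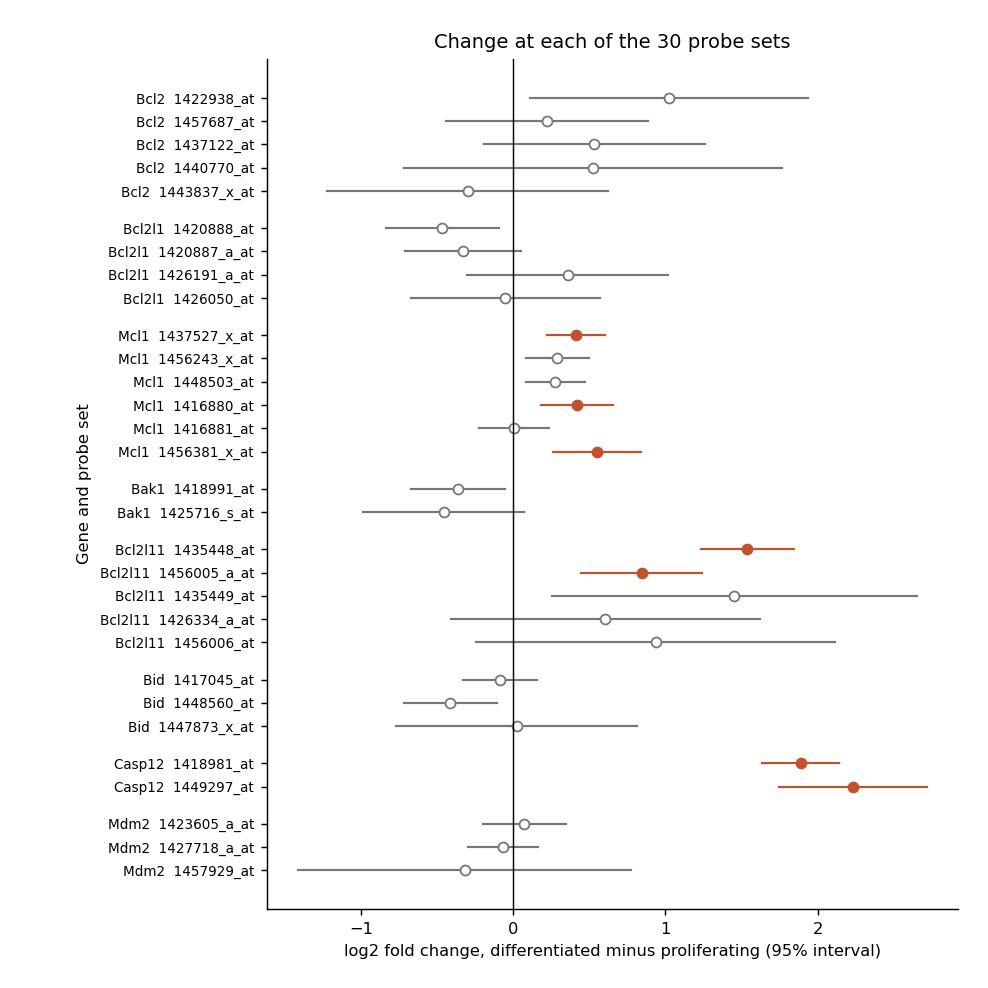
Change on the log2 scale, differentiated over proliferating (horizontal axis), at each of the 30 probe sets, grouped by gene and labelled with the Affymetrix probe set identifier (vertical axis). Circles are limma estimates, filled where the adjusted p is under 0.05, and bars are 95% intervals, which are not adjusted for the number of probe sets; the 7 filled circles belong to Mcl1, Bcl2l11 and Casp12 and all lie above 0.

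Bak1 builds pores in the outer mitochondrial membrane once it is released from Mcl1 and Bcl-xL. Its brighter probe set read 599, 643 and 764 in proliferating cells and 454, 491 and 607 in differentiated cells. Differentiated replicate 3 reached into the proliferating range, and the log2 fold change of -0.36 (SE 0.14) did not pass (limma adjusted p = 0.13). The dimmer probe set was at -0.46 (SE 0.24, adjusted p = 0.31), where the groups did not overlap.

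Bid links death receptors to the mitochondria, since caspase 8 cuts it into its active form. Its brightest probe set read 996, 1139 and 884 against 913, 943 and 963, with a log2 fold change of -0.09 and a 95% interval of -0.33 to 0.15. The groups overlap, and the 3 proliferating arrays were more scattered than the 3 differentiated ones. The second probe set of Bid was lower on every differentiated array, at 366, 293 and 316 against 454, 440 and 417, but at -0.42 (SE 0.14) it did not pass (limma adjusted p = 0.079). It did pass after scaling to a common 75th percentile (-0.47, adjusted p = 0.048). The third was near background, at 82.1 ± 8.99 and 85.3 ± 24.0 (SD, n = 3 each).

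Mdm2, which marks p53 for destruction and is itself a p53 target, had signals at its brightest probe set of 1427.5, 1359 and 1195 in proliferating cells and of 1689, 1293 and 1236 in differentiated cells. The groups overlap, and the log2 fold change of 0.07 had a 95% interval of -0.20 to 0.35 (limma adjusted p = 0.81). A second bright probe set was at -0.07, with an interval of -0.30 to 0.16. At both of them the groups overlap. The third lay at background on all 3 proliferating arrays and on 2 of the 3 differentiated ones.

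To set pro-survival against pro-death members, the log2 ratio of pairs of genes, each at its brightest probe set, was taken within each array. It is given relative to the mean of the proliferating arrays. Only the change of a ratio is read, since the level of a probe set depends on its probes, and no p is given because the members were chosen with results known. Bcl2l11 over Mcl1 was at -0.03, -0.16 and 0.20 on the proliferating arrays and between 0.93 and 1.24 on the differentiated arrays. The BH3-only transcript thus gained on Mcl1 by 1.12 on the log2 scale, although Mcl1 itself rose. Against Bcl2l1 it gained more, with 1.99, 1.73 and 2.30 on the differentiated arrays and at most 0.12 on the proliferating ones. Against Bcl2 the groups overlap, with a mean difference of 0.52 and an SD of 1.03 on the proliferating side.
For the pore former Bak1 the picture was another. Bak1 over Mcl1 was at -0.15, -0.03 and 0.18 on the proliferating arrays and at -0.99, -0.77 and -0.58 on the differentiated arrays. At these probe sets the pore former thus lost ground to Mcl1 on every differentiated array. All ratios to Mcl1 rest on its brightest probe set, an _x_at one, while another probe set of Mcl1 was at 0.00. Ratios to the other probe sets of Mcl1 were not taken. Bak1 over Bcl2l1 overlapped, at -0.24, -0.24 and 0.79 on the differentiated arrays. Bak1 over Bcl2 was lower on all 3 differentiated arrays, at -1.68, -0.98 and -1.49, against -0.23, -0.83 and 1.06 on the proliferating arrays. Bid over Mcl1 was lower on all 3 differentiated arrays, at -0.58, -0.43 and -0.51, with proliferating arrays between -0.19 and 0.21. Bid over Bcl2l1 had the other sign, at 0.17, 0.11 and 0.86 on the differentiated arrays, and overlapped. Bid over Bcl2 was lower, at -1.28, -0.64 and -1.42 on the differentiated arrays against -0.09, -0.60 and 0.69. The ratios to Bcl2 rest on a dim probe set, above background on 1 of 3 proliferating arrays.
Averaged over the brightest probe sets, the 3 survival genes minus Bak1, Bcl2l11 and Bid gave a difference between the groups of -0.04. This is far below the SD of 0.29 among proliferating arrays and 0.11 among differentiated arrays. The near balance rests on single genes: without Bcl2l11 the difference was 0.55, and without Bcl2 it was -0.39. On the pro-death side only Bcl2l11 was called, and Bak1 and Bid had values below 0 that did not pass. On the survival side only Mcl1 was called, and Bcl2 and Bcl2l1 had values of opposite sign that did not pass. Whether the members of a side differ in their change was not tested.

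**Figure D3:**
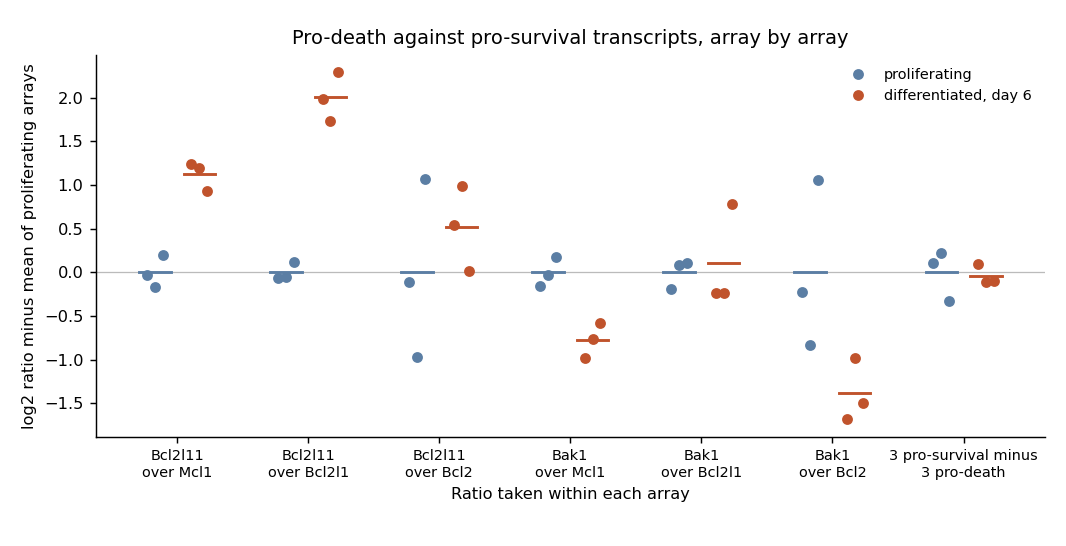
Log2 ratio of gene pairs within each array, minus its mean on the proliferating arrays (vertical axis), for 6 pairs and for the mean of 3 pro-survival minus 3 pro-death genes (horizontal axis). Circles are the 3 proliferating (blue) and 3 differentiated (red) arrays and lines their means. At the brightest probe set of each gene, Bcl2l11 over Mcl1 and over Bcl2l1 is higher on all 3 differentiated arrays. Bak1 over Mcl1 and over Bcl2 is lower there.

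Other genes of the pathway were read from 6 lists with 89 genes, of which 80 had a probe set of a single symbol and were represented by the brightest. Of the 80, 16 rose, 11 fell and 53 did not pass, while 8.67% of all genes were called higher and 9.05% lower. The median log2 fold change was 0.09 over the 80 and 0.06 over all genes. With eBayes without trend, 10 of the 80 were higher and 2 lower, so most of the falls were not called in that fit.

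Among 13 measured others of the Bcl2 family, 3 rose, 1 fell and 9 did not pass, where 8.67% of all genes were called higher and 9.05% lower. Bmf, a BH3-only protein tied to the cytoskeleton, rose from 65.2 ± 33.0 to 226 ± 6.35 (SD, n = 3 each), which is a log2 difference of 1.69 (limma adjusted p = 0.0057), and had 1 of 3 proliferating arrays above background. Its other 2 probe sets did not pass, at -0.51 and 0.15. Pmaip1, which encodes Noxa, the BH3-only partner of Mcl1, rose by 1.02 (SE 0.22, adjusted p = 0.0078), a call lost without differentiated replicate 3 (adjusted p = 0.0502) and with eBayes without trend (0.057). The survival gene Bcl2l2 (Bcl-w) rose by 0.56 (adjusted p = 0.021), but not when any of 4 single arrays was left out (adjusted p from 0.060 to 0.10). The other probe sets of Bcl2l2 were dim and did not pass, at 0.13, 0.33 and 0.51. Bok, a pore-forming relative of Bax and Bak1, fell from 1007, 1608 and 1277 to 346, 330 and 383, a log2 difference of -1.81 (SE 0.15, adjusted p = 4.5e-06).

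Of 7 other caspases, 2 were called higher, Casp4 and Casp1, and 3 lower, beside 8.67% and 9.05% of all genes. Casp4, an inflammatory caspase, went from 71.6, 85.6 and 72.5 to 411, 415 and 448, a log2 difference of 2.27 (SE 0.20, limma adjusted p = 5.7e-06). On the proliferating side 2 of its 3 arrays were above background. In RefSeq, Casp1, Casp4 and Casp12 stand next to each other in this order on chromosome 9, and Pdgfd follows Casp12. Casp1 was called higher, but all 6 of its arrays were at background, between 3.80 and 7 on the proliferating side and between 29.3 and 30.3 on the differentiated side, so no fold is read. The 3 caspases that fell were Casp2 (-0.59, adjusted p = 0.0070), Casp6 (-0.59, adjusted p = 0.0071) and Casp8, which cuts Bid (-0.52, adjusted p = 0.016). With eBayes without trend none of the 3 passed (adjusted p = 0.12, 0.12 and 0.16). Casp8 was no longer called without proliferating replicate 2 or 3 or differentiated replicate 2 (adjusted p = 0.054, 0.065 and 0.073). Casp9, the caspase of the apoptosome, was at -0.48 (adjusted p = 0.33) and overlapped, with -0.20 when differentiated replicate 3 was left out and -0.75 when differentiated replicate 2 was. Its other 2 probe sets were at 0.05 and -0.19.
Inflammatory caspases are also genes of macrophages. Of 5 macrophage markers, Adgre1 rose, from 117, 75.6 and 96.3 to 173, 208 and 179 (adjusted p = 0.049), and 4 did not pass. Summed over the 5, proliferating arrays gave 451 to 537 and differentiated arrays 608 to 662. Ptprc, which marks all white blood cells, was at background on every differentiated array, and Itgam was above it on 1 array of each group. Cd68 and Csf1r were above background on all 3 arrays of each group. Their log2 fold changes were 0.10 and 0.39 (limma adjusted p = 0.90 and 0.33), and the groups overlap at both. The cultures are of a myoblast line. Whether they held any such cells, and a part of these in the rise of Casp4 and Casp12, was not tested.

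Around the apoptosome and the mitochondria, 1 of 16 genes rose, 3 fell and 12 did not pass. For this list and the death receptors, the shares over all genes are 8.67% higher and 9.05% lower. Cytochrome c (Cycs) fell from 7140 ± 823 to 4657 ± 637 (SD, n = 3 each), a fall with a log2 difference of -0.62 (limma adjusted p = 0.0039). The adenine nucleotide carriers Slc25a5 and Slc25a4 fell by 0.94 and 0.49. Diablo, which frees caspases from their inhibitors, rose by 0.46 (adjusted p = 0.023), a call lost when replicate 1 or 3 of either group was left out (adjusted p from 0.055 to 0.093). A dim probe set of Diablo had a value of the other sign, -1.04, with arrays between 47.6 and 98 against 13.9 to 42.8, and did not pass (adjusted p = 0.23), all 3 differentiated arrays being at background. Apaf1 was at 0.00, with a 95% interval of -0.42 to 0.42. Of 10 genes of the death receptors only Traf2 rose, by 0.58 (adjusted p = 0.045), and it did not pass after scaling to a common 75th percentile (adjusted p = 0.069), with quantile normalization (0.070) or with any of 5 single arrays left out (0.063 to 0.17).

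Around Mdm2, 8 of 23 genes of the p53 pathway rose, 1 fell and 14 did not pass, with a median log2 fold change of 0.44. Over all genes the median was 0.06, with 8.67% called higher and 9.05% lower. No probe set is named here for p53 itself (Trp53). Gadd45a, a stress gene of growth arrest, rose from 485, 546 and 584 to 5156, 5146 and 5019, a log2 difference of 3.21 (SE 0.10, limma adjusted p = 5.25e-10). Eda2r, a receptor of the tumour necrosis factor family, rose by 2.30, the cell cycle inhibitor Cdkn1a (p21) by 1.50 and the stress sensor Sesn1 by 1.28. The other 4 that rose were Ei24, Plk2 and Phlda3, at 0.84, 0.98 and 0.56, and Ddb2, which was at background on every proliferating array and at least 2.31-fold higher in differentiated cells, with an adjusted p of 0.0499 at the edge of the threshold. Rps27l fell by 0.52. Mdm4, the partner of Mdm2 in the control of p53, was at 0.13 with a 95% interval of -0.26 to 0.52. The 14 genes that did not pass ran from -0.89 (Pidd1) to 1.58 (Trp63), and Ccng1, Aen and Btg2 were at 0.05, 0.02 and -0.07. Mdm2 thus had a narrow interval around 0 on the same arrays on which 8 genes of its pathway rose. It was not alone in lying near 0.

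Of 12 genes of endoplasmic reticulum stress, the setting in which caspase 12 is best known, 2 rose, Atf6 and the already named Traf2, and 3 fell. Among all genes 8.67% were called higher and 9.05% lower. The stress sensor Atf6 rose from 598, 669 and 459 to 1376.5, 1555 and 1219, a log2 fold change of 1.25 (limma adjusted p = 5.5e-05), while 2 other probe sets of Atf6 did not pass, at 0.18 and 0.10. Ddit3 (CHOP), which marks the terminal stress response and can induce Bim, fell from 1163 ± 57.8 to 808 ± 47.8 (SD, n = 3 each), by 0.52. The oxidase gene Ero1a fell by 0.50 and the calpain gene Capn2, whose product can cut caspase 12, by 0.51. The chaperone gene Hspa5 (BiP) was at 0.00, with a 95% interval of -0.23 to 0.23.

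**Figure D4:**
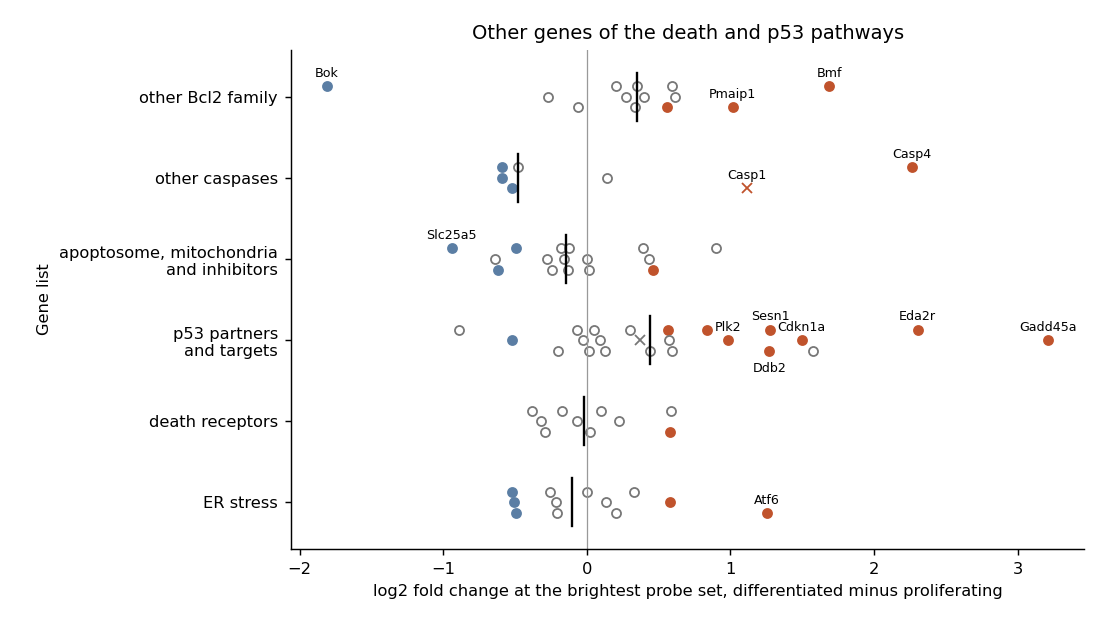
Change on the log2 scale, differentiated over proliferating with 3 arrays each (horizontal axis), of the measured genes of 6 lists (vertical axis), each at its brightest probe set. Filled circles passed at an adjusted p under 0.05 (red higher, blue lower), open circles did not, crosses are genes at background on all 6 arrays, and vertical lines are list medians; passing genes beyond 0.9 in size are named, from Bok at -1.81 to Gadd45a at 3.21.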

How the data were processed

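RNA of proliferating and differentiated C2C12 cells was hybridized to 6 Affymetrix arrays, 3 per group. Per the study's methods, images were analysed with MAS 5.0, and the intensity values deposited by the authors are its linear signals. The trimmed mean is about 250 on every array. The GCRMA normalization of the methods needs probe-level data and was not run here. The table holds 45101 probe sets, 64 of them controls, which were left out. With a pseudocount of 15 and no further normalization, the 2 groups were compared on the log2 scale by limma 3.58.1 (R 4.3.3), using lmFit and an eBayes step that lets the variance follow brightness; tests were 2-sided and adjusted by Benjamini and Hochberg over 45037 probe sets. Fold changes on this scale understate those of dim genes. Names come from the platform annotation: 34945 probe sets have 1 symbol, 932 several and 9160 none. The fit was tested on simulated data. The regularized test used a window of 101 probe sets and a prior weight of 10.

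The members, lists and tests were chosen with earlier results of these data known. Besides the members, the text names up to 4 genes per pathway list that passed, did not overlap, were above background in the higher group and changed most, and Mdm4, Casp9 and Apaf1 as partners. Genes past these, such as Ei24, Plk2, Phlda3, Ddb2, Rps27l, Ccng1, Aen, Btg2, Casp1, Ero1a, Hspa5 and Adgre1, were named after their values were seen. Marker lists gave 0 of 4 calls for reserve and for endothelial cells, and 1 of 3, Pparg (lower), for adipocytes. Same-numbered replicates of both groups did not deviate together (r from 0.00 to 0.01), so the numbers were not used to pair arrays. The number of arrays limits the precision of every value.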

Additional observations from a re-analysis of the deposited data

How the results depend on the processing

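Casp12 and Bcl2l11 kept their direction and their call at the brightest probe set under every alternative run: quantile normalization, scaling to the same 75th percentile, pseudocounts of 1 and 50, dim probe sets left out, eBayes without trend, the regularized test, the replicate block, the mean over probe sets, and each array left out. The mean over probe sets took those above background on all arrays of a group. Mcl1 kept its call at the brightest probe set under all of these but eBayes without trend (0.41, adjusted p = 0.19), which left 4 member probe sets called higher, and 10 pathway genes higher and 2 lower, Bok and Slc25a5. Of the 7 member probe sets, 4 also reached 1.5-fold. Scaling to the same 75th percentile gave 1 member probe set called lower, of Bid. With single arrays left out, 5 to 6 member probe sets were higher and 0 lower, and 12 to 15 pathway genes were higher and 8 to 11 lower. The log2 fold change of Bid turned from -0.09 to 0.0017 without proliferating replicate 2 (range -0.18 to 0.0017), and that of Mdm2 from 0.07 to -0.065 without differentiated replicate 1 and to -0.00013 without proliferating replicate 3 (range -0.065 to 0.16). None of these passed. Mdm4 was at -0.015 without differentiated replicate 2 (range -0.015 to 0.22). Apaf1 was at -0.050 with quantile normalization and -0.046 with the 75th percentile, and between -0.16 and 0.11 with single arrays left out, below 0 without proliferating replicate 2 or differentiated replicate 1. The replicate block changed no call of a member; the fit with it gave 7 member probe sets higher and 0 lower, and 13 pathway genes higher (16 without it) and 11 lower, with Traf2 among the calls lost (adjusted p = 0.072). The pro-survival minus pro-death difference was -0.26 without Bid, and, in alternatives chosen after seeing the data, 0.55 without Bcl2l11 and -0.39 without Bcl2. Single arrays left out moved it between -0.20 and 0.07. The cause of these shifts was not tested. Signals near the bacterial controls limit Bcl2 and the dim probe sets of Bcl2l11.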
